A study of Mus musculus with 6 samples.

Results

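A set of 10 genes named for regulatory T cells was followed in the lung: the transcription factor genes Foxp3 and Ikzf2, the receptor genes Ctla4, Il2ra, Tnfrsf18, Tnfrsf4 and Ccr8, the surface anchor gene Lrrc32, and the secreted factor genes Il10 and Areg. They were chosen by name, with earlier results of these data known. All 10 of 10 had a row among the 35275 gene rows of each count table. RNA came from whole lungs of Balb/c mice 7 days after 250000 4T1 cells, a mouse mammary carcinoma line that colonises the lung, were injected into the tail vein. The injected cells were 4T1.PD-L1 KO (KO lungs, 3 libraries) or 4T1.WT (WT lungs, 3 libraries). All lungs were perfused with 20 mL of PBS, and no gene edit of the host mice is labelled, so KO and WT refer to the injected cells. Whether the KO line is 1 clone is not given in the sources used here, and any other difference between the injected lines, or in tumour load, cannot be told apart from the loss of PD-L1. In RNA of a whole organ, fewer cells of a type and less RNA per cell cannot be told apart either.

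Regulatory T cells are CD4 T cells that restrain other immune cells and that depend on the transcription factor FOXP3. They take up IL-2 through the high-affinity receptor chain CD25, encoded by Il2ra, and carry CTLA-4, which competes with the costimulatory receptor CD28 for the ligands CD80 and CD86 on antigen-presenting cells. In tumours and in inflamed lung they also carry the TNF receptor family members OX40 (Tnfrsf4) and GITR (Tnfrsf18) and the chemokine receptor CCR8, and they can release IL-10 and the epidermal growth factor receptor ligand amphiregulin. Several of these genes are not restricted to regulatory T cells. Activated T cells also make CTLA-4, CD25 and OX40, myeloid and B cells also make IL-10, endothelial cells and platelets also express Lrrc32, and epithelial cells and other lymphocytes also make amphiregulin.

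In KO lungs Ctla4 rose, and the other 9 genes did not pass the test over all genes. Ctla4 averaged 18.01 ± 6.20 CPM (read counts scaled by library size) in KO lungs and 5.28 ± 1.71 CPM in WT lungs (SD, n = 3 each), a ratio of means of 3.41. Foxp3, at 4.597 ± 1.03 CPM in KO lungs and 1.87 ± 0.398 CPM in WT lungs, and Tnfrsf4, at 7.17 ± 2.65 CPM in KO lungs and 3.60 ± 0.960 CPM in WT lungs, did not pass, although for each of them no WT library reached the lowest KO library. By contrast, Tnfrsf18, Ccr8 and Lrrc32 had log2 differences close to 0 with overlapping groups. Of all 15191 genes tested, 1.12% were higher and 0.336% lower in KO lungs at an adjusted p under 0.05 (edgeR quasi-likelihood test, Benjamini-Hochberg), against 1 higher and 0 lower of the 10 genes. Every KO library exceeded every WT library for 3 of the 10 genes, against 10.3% of all genes tested. Every KO library was below every WT library for 0 of the 10, against 9.4% of all genes. At an unadjusted p under 0.05, 5 of the 10 genes were higher and 0 were lower, against 8.29% and 6.33% of all genes. The 10 genes had a median log2 fold change of 0.71, and all genes tested one of 0.01. Because the 10 genes were chosen with earlier results known, these counts and medians are no independent test of the set. The shares of all genes given here also stand beside the list counts below.

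**Figure D1:**
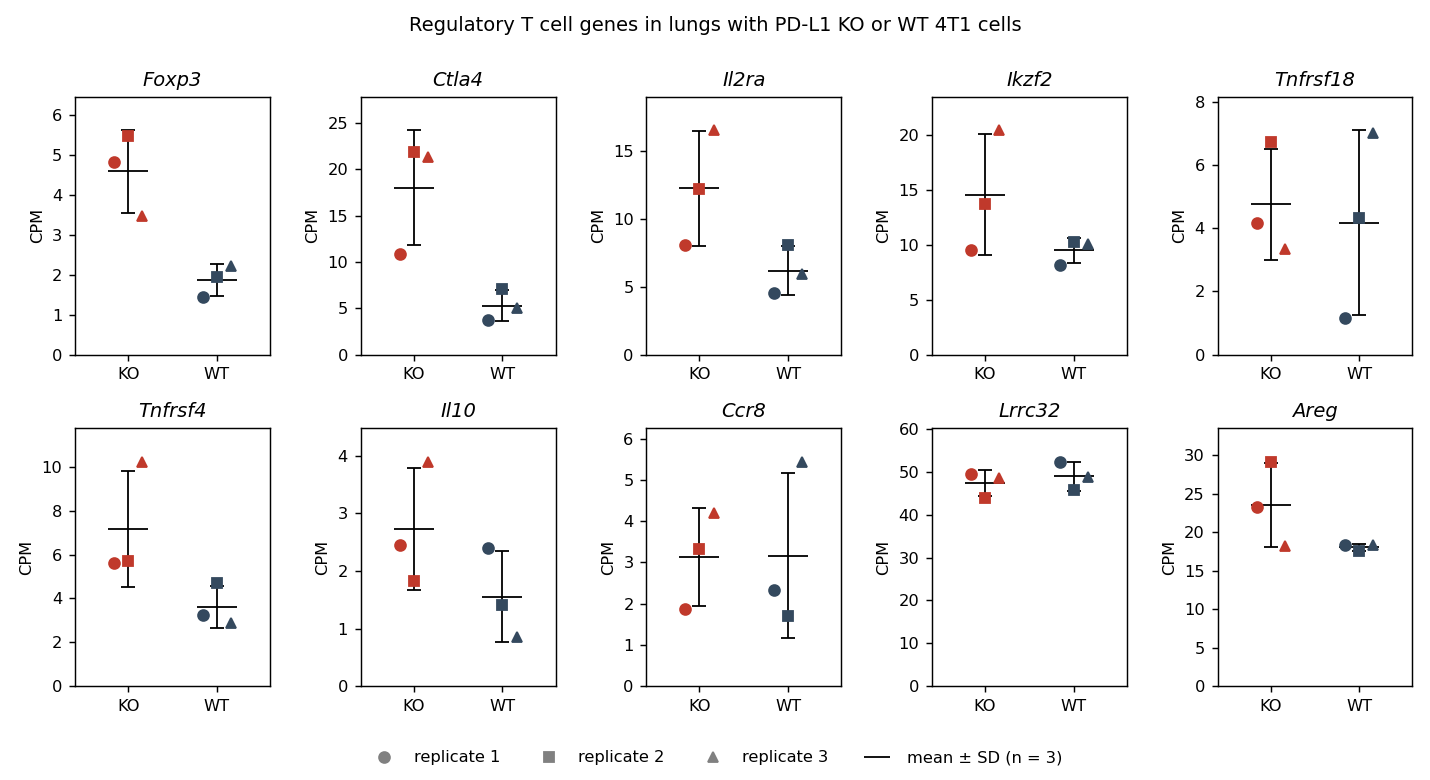
CPM of the 10 genes in each library (points, shaped by replicate), with the mean and SD of 3 KO and 3 WT lungs; each panel has its own axis from 0. The 3 KO libraries lie above the 3 WT libraries for Foxp3, Ctla4 and Tnfrsf4 and overlap with them for the other 7 genes.

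Libraries held 15222408 to 16469780 counts in KO lungs and 14711459 to 16932114 counts in WT lungs. Every one of the 10 genes had at least 13 counts in each library, so none was at the limit that a count of 0 allows, which at 3 counts was 0.183 to 0.196 CPM in KO and 0.176 to 0.206 CPM in WT libraries (counting error only). The targeted gene Cd274, which encodes PD-L1, had 97.3, 197.2 and 300.1 CPM in KO lungs and 62.5, 53.5 and 74.2 CPM in WT lungs (log2 difference 1.65 ± 0.42 SE, edgeR adjusted p = 0.161). Host cells keep this gene, so it does not check the labels. All 8 endothelial and all 6 epithelial marker genes were counted in each library. These markers are not particular to the lung, so they do not check the tissue label. Foxp3, the gene that defines regulatory T cells, had 75, 84 and 57 counts in KO libraries and 21, 33 and 34 counts in WT libraries. The label of the genes therefore rests on few reads, and the files hold no measure of the cells that made them.

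Per kilobase of exon, which allows genes to be compared, Areg and Lrrc32 were the most abundant of the 10 genes in both groups, and Foxp3 the least. Areg had 19.3 ± 4.52 CPM per kilobase in KO and 14.9 ± 0.370 in WT lungs, and Lrrc32 had 10.1 ± 0.636 in KO and 10.5 ± 0.709 in WT lungs. Foxp3 had 1.004 ± 0.225 CPM per kilobase in KO and 0.408 ± 0.0869 in WT lungs. Ctla4 was the third in level in KO lungs, at 7.73 ± 2.66 CPM per kilobase, and the sixth in WT lungs, at 2.27 ± 0.733. In KO lungs Ctla4 was followed by Tnfrsf4 at 5.25 ± 1.94, Tnfrsf18 at 3.12 ± 1.16, Ccr8 at 2.67 ± 1.01, Il2ra at 2.14 ± 0.741, Il10 at 2.08 ± 0.810 and Ikzf2 at 1.26 ± 0.473 CPM per kilobase. Neighbours in this order from Ctla4 to Foxp3 differed by less than the sum of their SDs. In WT lungs Tnfrsf18, Ccr8, Tnfrsf4 and Ctla4 lay between 2.27 and 2.74 CPM per kilobase and did not differ beyond their spread.

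Ctla4 (ENSMUSG00000026011) encodes the inhibitory receptor CTLA-4 and lies on the plus strand of chromosome 1 at 60887000 to 60915832 (GRCm38). The gene had 10.9, 21.9 and 21.3 CPM in KO replicates 1 to 3, against 3.71, 7.10 and 5.05 CPM in WT replicates 1 to 3. The lowest KO library was replicate 1, and it still lay above the highest WT library. The log2 fold change was 1.76 ± 0.31 (SE; edgeR quasi-likelihood test, adjusted p = 0.0158), higher in 3 of 3 KO libraries. The call was lost without KO replicate 2 (log2 fold change 1.599, adjusted p = 0.109), without KO replicate 3 (1.62, adjusted p = 0.0766) or without WT replicate 1 (1.56, adjusted p = 0.0955). Ctla4 overlaps Rpl18-ps1, a processed pseudogene on the same strand, which had at most 11 counts in a library.

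**Figure D2:**
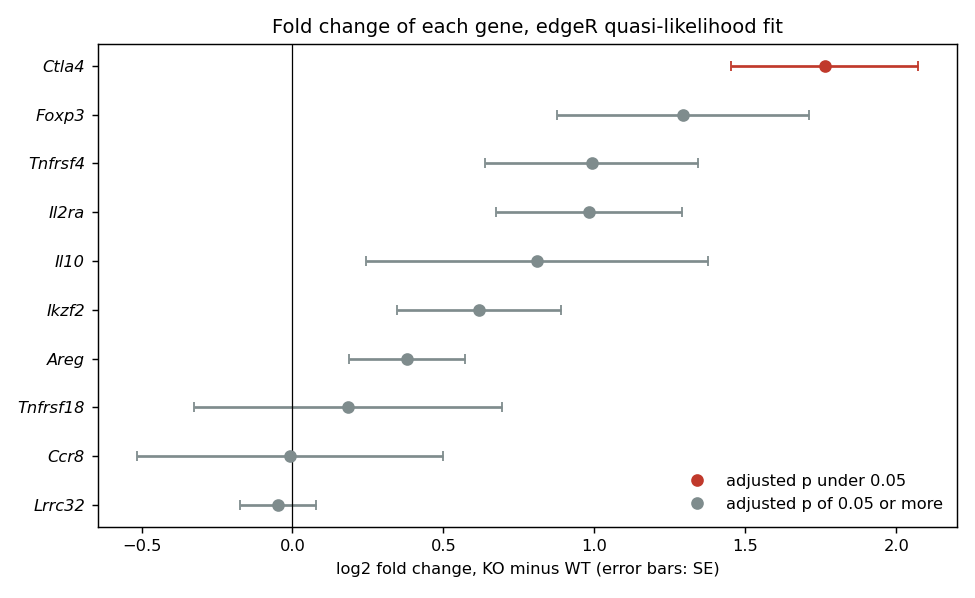
Log2 fold change of each gene, KO minus WT, with its SE from the edgeR fit over all genes. Ctla4, at 1.76, is the only one of the 10 genes with an adjusted p under 0.05, and the values run down to −0.05 for Lrrc32.

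By the gene spans used here, Ctla4 sits between the genes of its costimulatory relatives CD28 and ICOS, 113640 bases from the end of Cd28 and 62094 bases from the start of Icos. The neighbours were used as a reference for T cell RNA of the same libraries, and whether they are a neutral one was not tested. Cd28 had 34.8, 41.4 and 51.1 CPM in KO lungs, against 23.1, 47.0 and 28.5 CPM in WT lungs. Icos had 36.3, 56.6 and 51.1 CPM in KO lungs, against 22.5, 46.9 and 32.7 CPM in WT lungs. For both genes the groups overlapped, with log2 differences of 0.37 ± 0.23 for Cd28 and 0.49 ± 0.24 for Icos, neither of which passed (edgeR adjusted p = 0.51 and 0.369).

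Set against Cd28, Ctla4 had 31.2, 52.8 and 41.7 counts per 100 Cd28 counts in KO libraries and 16.1, 15.1 and 17.7 in WT libraries. The WT libraries lay close together although their Cd28 levels differed, and the KO libraries were all higher. The lowest 95% bound in a KO library was 26.3 and the highest bound in a WT library was 22.5 (Wilson interval of the share, covering counting error only). Against Icos, Ctla4 had 29.96, 38.6 and 41.7 counts per 100 in KO libraries and 16.5, 15.1 and 15.4 per 100 in WT libraries, again without overlap. Relative to Cd28, every KO library lay above every WT library for 1.05% of all genes and below for 6.02%, and relative to Icos for 0.632% and 9.46%. The log2 ratio was higher in KO lungs by 1.25 against Cd28 and by 1.13 against Icos. An exact two-sided permutation test over the 6 libraries gave p = 0.1 for each, which is the smallest p that 3 against 3 allows, and 2 such ratios were tested. Icos itself had 104.3, 136.9 and 100.1 counts per 100 Cd28 counts in KO and 97.3, 99.8 and 114.7 in WT libraries, with overlapping groups.

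**Figure D3:**
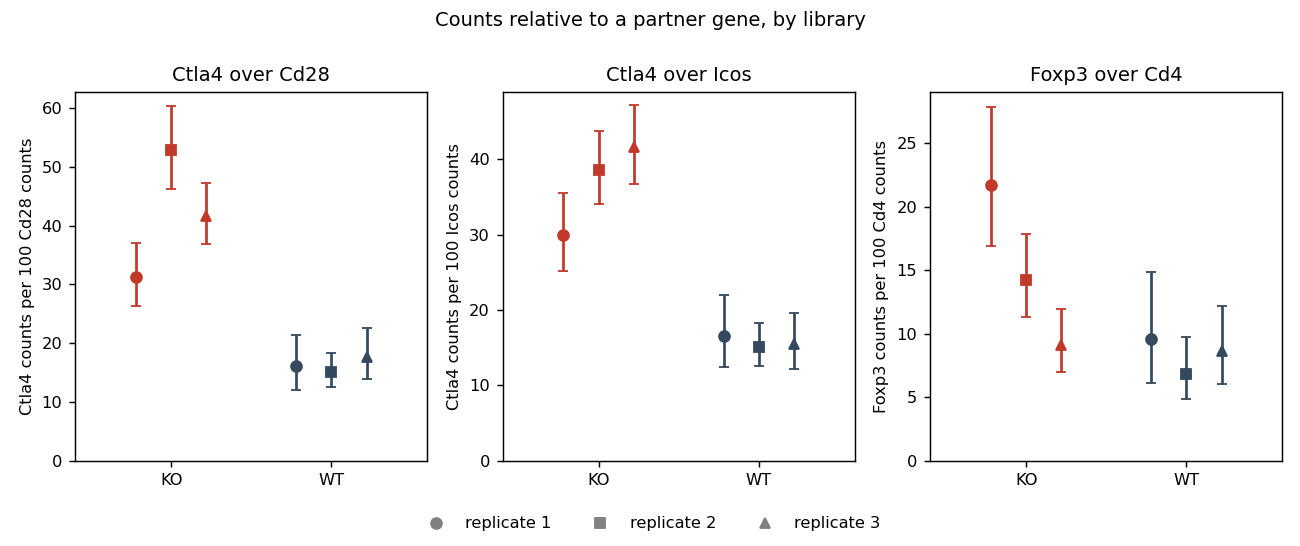
Counts of Ctla4 per 100 counts of Cd28 and of Icos, and of Foxp3 per 100 counts of Cd4, in each library with 95% Wilson bounds (counting error only). Ctla4 per 100 Cd28 counts is 31.2 to 52.8 in KO and 15.1 to 17.7 in WT libraries, whereas Foxp3 per 100 Cd4 counts overlaps between the groups.

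Foxp3 (ENSMUSG00000039521; chromosome X, 7573644 to 7595245, plus strand) encodes the transcription factor that sets the regulatory T cell programme. The gene had 4.82, 5.50 and 3.47 CPM in KO replicates 1 to 3, against 1.44, 1.94 and 2.23 CPM in WT replicates 1 to 3. All KO libraries were above all WT libraries, and replicate 3 was the lowest in KO and the highest in WT lungs. With a log2 difference of 1.29 ± 0.42, Foxp3 missed the threshold over all genes (edgeR adjusted p = 0.154). Per 100 counts of Cd4, the co-receptor gene of helper and regulatory T cells, Foxp3 had 21.7, 14.2 and 9.12 counts in KO libraries and 9.55, 6.86 and 8.61 in WT libraries. These ranges overlapped, since KO replicate 3 lay below WT replicate 1. KO replicate 1, the lowest of the KO libraries for Ctla4, was the highest for Foxp3 by this ratio. Foxp3 overlaps Ppp1r3f, with at most 92 counts in a library, and the antisense-annotated Flicr, with at most 5. The strand setting of the counting is not given, so reads of such neighbours cannot be told apart.

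Ikzf2 (chromosome 1, 69531214 to 69687245) encodes Helios, a transcription factor of thymus-derived regulatory T cells. It had 9.58, 13.7 and 20.5 CPM in KO lungs, against 8.17, 10.3 and 10.1 CPM in WT lungs. Groups overlapped because KO replicate 1 lay below WT replicates 2 and 3, and the log2 difference was 0.62 ± 0.27 (edgeR adjusted p = 0.305).

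Il2ra (chromosome 2, 11642807 to 11693193) encodes CD25. It had 8.04, 12.2 and 16.5 CPM in KO lungs, against 4.53, 8.09 and 5.90 CPM in WT lungs. KO replicate 1 and WT replicate 2 were nearly equal, and the other KO libraries were higher than every WT library. Its log2 difference was 0.98 ± 0.31 and missed the threshold (edgeR adjusted p = 0.141), but Il2ra passed without KO replicate 1 (1.21, adjusted p = 0.0408) and with no filter on low counts (0.98, adjusted p = 0.017). Among 7 tested genes of the IL-2 receptor axis, Il2rg rose and the other 6 did not pass. Il2rg, the chain shared with other cytokine receptors, had 39.7, 45.2 and 54.9 CPM in KO lungs, against 24.0, 24.9 and 25.7 CPM in WT lungs (log2 fold change 0.91 ± 0.15, edgeR adjusted p = 0.0144). The call for Il2rg was lost without KO replicate 2 or 3 or WT replicate 1 or 2. Jak3, the kinase that binds this chain, had a log2 difference of 0.38 ± 0.12 (edgeR adjusted p = 0.135), and Il2rb, the signalling chain of the IL-2 receptor, one of 0.10 ± 0.30. The cytokine gene Il2 itself had 4, 0 and 0 counts in KO libraries and 1, 7 and 19 in WT libraries and was not tested. The list had a median log2 fold change of 0.10.

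Tnfrsf4 and Tnfrsf18 lie 9551 bases apart on chromosome 4 and encode OX40 and GITR, costimulatory receptors of the TNF receptor family. Tnfrsf4 (156013843 to 156016612) had 5.59, 5.69 and 10.2 CPM in KO lungs, against 3.23, 4.69 and 2.88 CPM in WT lungs. The KO libraries lay above the WT libraries, with KO replicate 3 well above the rest, and the log2 difference was 0.99 ± 0.35 (edgeR adjusted p = 0.198). Tnfrsf18 (156026164 to 156028895) had 4.18, 6.74 and 3.35 CPM in KO lungs, against 1.17, 4.34 and 7.02 CPM in WT lungs. Its WT libraries covered a range that contained all 3 KO libraries, the log2 difference was 0.18 ± 0.51, and it was negative without KO replicate 2 (−0.15) or WT replicate 1 (−0.26). Tnfrsf18 overlaps the antisense gene Gm16008, which had at most 27 counts in a library. The 9 tested genes among 10 ligands and partners of these receptors held none that passed by edgeR or DESeq2 (1 higher and 0 lower at an unadjusted p under 0.05), with a median log2 fold change of 0.39. Traf1, an adaptor of TNF receptors, had a log2 difference of 0.48 ± 0.14 (edgeR adjusted p = 0.125). The ligand gene of OX40, Tnfsf4, had 13, 11 and 21 counts in KO libraries, against 6, 4 and 0 in WT libraries, and that of GITR, Tnfsf18, had 20, 14 and 3 counts in KO libraries, against 9, 0 and 20 in WT libraries.

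Ccr8 (chromosome 9, 120092114 to 120094906) encodes a chemokine receptor of regulatory and type 2 helper T cells. It had 1.86, 3.34 and 4.201 CPM in KO lungs, against 2.33, 1.70 and 5.44 CPM in WT lungs. WT replicate 3 was the highest of all libraries, and the log2 difference of −0.01 ± 0.51 became 0.64 without it. Of its ligand genes, Ccl1 had 18, 14 and 17 counts in KO libraries, against 1, 5 and 14 in WT libraries, and Ccl8, a ligand of CCR8 in the mouse, had 20, 85 and 63 counts in KO libraries, against 1, 0 and 15 in WT libraries. For Ccl8 the KO libraries were all higher but the difference did not pass (edgeR adjusted p = 0.119). Of 12 tested genes of CCR8 ligands and T cell homing, 0 passed by edgeR and DESeq2 called 1 higher. At an unadjusted p under 0.05 by edgeR, 4 were higher and 0 lower, against 8.29% and 6.33% of all genes. The median of this list was 0.39.

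Il10 (chromosome 1, 131019845 to 131024974), which encodes an anti-inflammatory cytokine, had 2.44, 1.83 and 3.90 CPM in KO lungs, against 2.40, 1.41 and 0.852 CPM in WT lungs. The groups overlapped at 13 to 64 counts a library, and the log2 difference was 0.81 ± 0.57 (edgeR adjusted p = 0.555). Lrrc32 (chromosome 7, 98489283 to 98502181) encodes GARP, which holds latent TGF-beta on the cell surface. It had 49.6, 44.0 and 48.6 CPM in KO lungs, against 52.4, 45.8 and 48.8 CPM in WT lungs, with a log2 difference of −0.05 ± 0.13 (edgeR adjusted p = 0.907). The summed level of 10 platelet markers was 19.2 to 34.7 CPM in KO and 59.9 to 87.6 CPM in WT libraries. Of the 9 tested by edgeR, only Ppbp was called, and it was lower in KO lungs. At an unadjusted p under 0.05, 5 were lower and 0 higher, against 6.33% and 8.29% of all genes. Every KO library was below every WT library for 5 of the 10 markers, against 9.4% of all genes. Their median log2 fold change was −1.02. The summed level of 8 endothelial markers was 5258 to 6577 CPM in KO and 5555 to 7002 CPM in WT libraries. Their part in the Lrrc32 level was not tested. Among 13 genes of the IL-10 and TGF-beta axis, 0 passed by edgeR and 0 by DESeq2, 0 were higher and 1 lower at an unadjusted p under 0.05, and the median was −0.02. Tgfb2, a TGF-beta isoform gene, had a log2 difference of −0.35 ± 0.14 (edgeR adjusted p = 0.242), and Il10rb, a chain of the IL-10 receptor, one of 0.30 ± 0.15 (edgeR adjusted p = 0.38).

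Areg (chromosome 5, 91139599 to 91148432) encodes amphiregulin. It had 23.2, 29.1 and 18.1 CPM in KO lungs, against 18.3, 17.5 and 18.4 CPM in WT lungs. The WT libraries were almost equal, KO replicate 3 lay among them, and the log2 difference was 0.38 ± 0.19 (edgeR adjusted p = 0.391). The list around Areg held other ligands and receptors of the epidermal growth factor family and the protease gene Adam17. Of its 7 tested genes, 0 passed by edgeR and 0 by DESeq2. Their median was 0.01, and 0 had an unadjusted p under 0.05 by edgeR. Hbegf, another ligand, had a log2 difference of −0.21 ± 0.12 and Egfr, the receptor, one of −0.23 ± 0.14. The summed level of 6 epithelial markers was 786.6 to 852.8 CPM in KO and 701.9 to 885.6 CPM in WT libraries. The 6 mast cell and basophil markers summed to 204.5 to 301.5 CPM in KO and 269.8 to 279.6 CPM in WT libraries. Kit, at 233.6 ± 47.7 CPM in KO and 257.5 ± 2.22 CPM in WT lungs, made up most of this sum, so it does not measure the cell class, and Mcpt8, Ms4a2, Fcer1a and Cd200r3 were each at 0 in at least 1 library. The 5 markers of type 2 innate lymphoid cells summed to 24.96 to 34.69 CPM in KO and 30.91 to 39.69 CPM in WT libraries, with Il5 and Il13 at 0 in at least 1 library. The part of these cells in the Areg level was not tested.

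To show the sequence next to these genes, the RefSeq promoter windows (GRCm38.p6, plus strand, 250 bases before to 50 after the start site) were taken for the 3 genes whose groups did not overlap and for Tnfrsf18, the neighbour of Tnfrsf4 whose groups did overlap. Foxp3 has windows at 2 start sites. These RefSeq start sites can differ from the starts of the gene spans given above. The Ctla4 window lies inside its gene span, which starts at 60887000, and both Foxp3 windows lie inside that of Foxp3. Capitals mark matches, on either strand, to the NFAT core GGAAA, to the STAT site TTCNNNGAA and to the interferon-stimulated response element (TTTC, any 2 bases, TTTC).
Ctla4: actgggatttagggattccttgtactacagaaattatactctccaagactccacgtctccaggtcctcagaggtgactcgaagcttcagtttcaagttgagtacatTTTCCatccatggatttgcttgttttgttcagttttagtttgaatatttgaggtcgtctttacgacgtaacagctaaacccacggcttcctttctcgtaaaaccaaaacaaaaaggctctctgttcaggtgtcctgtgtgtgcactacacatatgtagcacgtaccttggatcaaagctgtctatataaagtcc
Foxp3 upstream start: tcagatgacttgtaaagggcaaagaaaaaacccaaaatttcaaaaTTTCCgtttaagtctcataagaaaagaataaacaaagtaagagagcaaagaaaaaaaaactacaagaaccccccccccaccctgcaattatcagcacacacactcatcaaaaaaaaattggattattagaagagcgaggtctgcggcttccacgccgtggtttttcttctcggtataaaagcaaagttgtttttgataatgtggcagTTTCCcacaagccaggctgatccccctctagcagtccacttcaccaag
Foxp3 downstream start: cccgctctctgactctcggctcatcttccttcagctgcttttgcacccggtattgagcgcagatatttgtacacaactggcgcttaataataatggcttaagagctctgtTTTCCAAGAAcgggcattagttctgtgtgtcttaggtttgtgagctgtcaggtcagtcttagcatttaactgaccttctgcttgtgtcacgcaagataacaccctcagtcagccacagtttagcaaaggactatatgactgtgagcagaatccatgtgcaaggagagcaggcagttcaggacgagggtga
Tnfrsf4: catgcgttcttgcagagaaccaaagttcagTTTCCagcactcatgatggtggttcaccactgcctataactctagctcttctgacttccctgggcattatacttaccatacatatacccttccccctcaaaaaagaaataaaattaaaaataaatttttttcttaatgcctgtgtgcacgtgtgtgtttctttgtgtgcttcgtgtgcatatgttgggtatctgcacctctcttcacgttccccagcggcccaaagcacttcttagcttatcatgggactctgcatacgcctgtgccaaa
Tnfrsf18: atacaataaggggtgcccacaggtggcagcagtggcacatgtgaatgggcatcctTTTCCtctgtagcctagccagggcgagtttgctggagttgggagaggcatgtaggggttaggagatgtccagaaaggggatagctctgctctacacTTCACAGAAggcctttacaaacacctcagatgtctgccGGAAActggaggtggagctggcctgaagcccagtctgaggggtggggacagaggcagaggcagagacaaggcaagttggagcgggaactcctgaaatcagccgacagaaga
The window of Ctla4 (chr1:60908775-60909074) held 1 match to the NFAT core, those of Foxp3 held 2 (chrX:7579426-7579725) and 1 (chrX:7580233-7580532), that of Tnfrsf4 (chr4:156013445-156013744) held 1 and that of Tnfrsf18 (chr4:156026072-156026371) held 2. A match to the STAT site was found in the second Foxp3 window, where it overlaps the NFAT core, and in Tnfrsf18. No window of the 7 genes with an entry held the interferon-stimulated response element. Of 32544 windows of this length in the table, 61.5% held the NFAT core, 8.33% the STAT site and 3.45% the response element. A match describes letters in the window and is not evidence that a factor binds there.

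T cell genes as a whole were compared next, to see whether the 10 genes moved with them. Of 18 genes of the T cell receptor complex and lineage, 0 passed by edgeR and 3 were higher by DESeq2. Their median log2 fold change was 0.42. At an unadjusted p under 0.05 by edgeR, 8 were higher and 1 lower, against 8.29% and 6.33% of all genes. Every KO library exceeded every WT library for 4 of the 18, against 10.3% of all genes. Every KO library was below every WT library for 0 of the 18, against 9.4%. Cd3g, a chain of the receptor complex, had a log2 difference of 0.80 ± 0.21 and Cd8a one of 0.95 ± 0.25 (edgeR adjusted p = 0.0805 and 0.0881). Their summed level was 420.3, 547.2 and 563.4 CPM in KO libraries and 326.8, 536.2 and 391.2 CPM in WT libraries, and the groups overlapped. The mean log2 level of Cd3d, Cd3e, Cd3g and Cd247 was 4.44 ± 0.17 in KO and 4.04 ± 0.13 in WT lungs (log2(CPM + 0.5), SD, n = 3 each), a difference of 0.40 (exact two-sided permutation p = 0.1). Every KO library (4.258, 4.47 and 4.587) exceeded every WT library (3.976, 4.195 and 3.96) for this mean. A gene with equal CPM in both groups therefore lies lower in KO libraries relative to it.

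Relative to that mean, Ctla4 lay at −0.75, 0.01 and −0.14 in KO libraries and at −1.90, −1.27 and −1.49 in WT libraries on the log2 scale. Ctla4 was the 1 gene of the 10 whose KO libraries all lay above its WT libraries by this measure, against 1.63% of all genes tested. For 0 of the 10 did all KO libraries lie below, against 35.9% of all genes, a share that the higher CD3 mean in KO libraries raises. The Ctla4 difference was 1.26, or 2.40-fold (exact two-sided permutation p = 0.1, the smallest possible, and 0.4 adjusted over the 10 genes). Foxp3 lay at −1.85, −1.89 and −2.60 in KO and at −3.02, −2.91 and −2.51 in WT libraries, a difference of 0.70 with 1 KO library inside the WT range (exact permutation p = 0.2). For Il2ra the difference was 0.52 and for Tnfrsf4 0.48 (exact permutation p = 0.2 for each). For Lrrc32 the difference was −0.44, also with an exact permutation p of 0.2. The 5 remaining genes lay between −0.33 for Ccr8 and 0.28 for Il10.

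**Figure D4:**
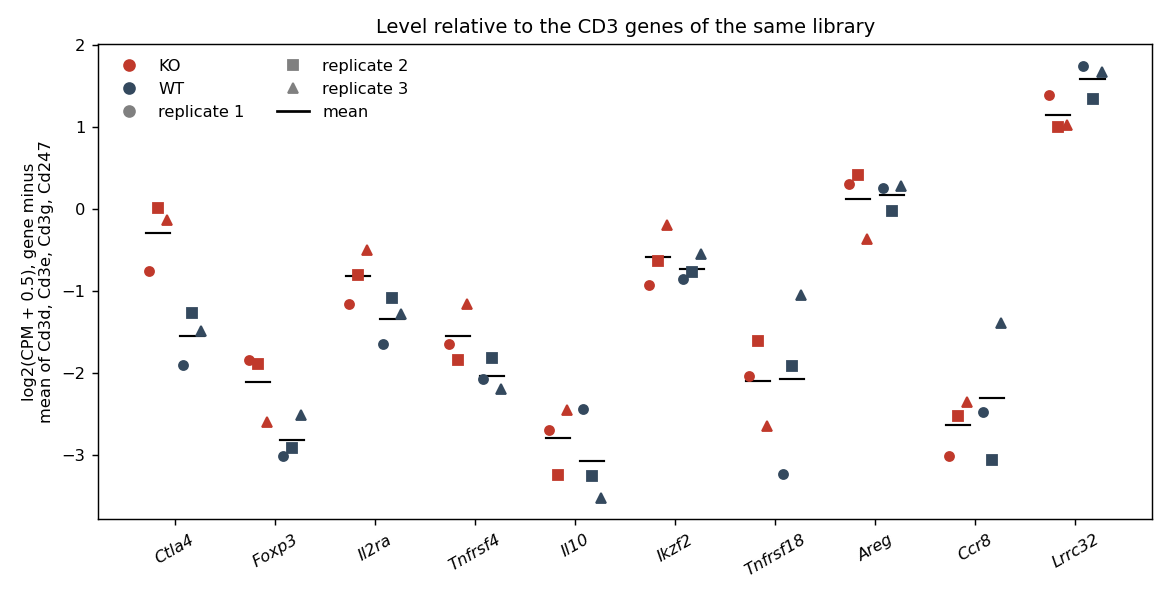
Level of each gene minus the mean level of Cd3d, Cd3e, Cd3g and Cd247 in the same library, as log2(CPM + 0.5); points are libraries and bars are means of 3. Ctla4 lies at −0.75 to 0.01 in KO and −1.90 to −1.27 in WT libraries, and the groups overlap for the other 9 genes.

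The partners of CTLA-4 were also examined. None of the 6 tested genes of the CD28 and CTLA-4 axis passed by edgeR or DESeq2 (1 higher and 0 lower at an unadjusted p under 0.05), and their median was 0.24. Cd86, a ligand, had 21.7, 35.2 and 38.2 CPM in KO lungs, against 23.6, 17.01 and 25.3 CPM in WT lungs, with a log2 difference of 0.53 ± 0.22 (edgeR adjusted p = 0.271). Cd80, the other ligand, had 9.99 ± 2.85 CPM in KO and 10.6 ± 2.04 CPM in WT lungs, a log2 difference of −0.09 ± 0.26.

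Of 15 other genes linked to regulatory T cells, 0 passed by edgeR and 0 by DESeq2, with 1 higher and 1 lower at an unadjusted p under 0.05 and a median of 0.11. Tigit, an inhibitory receptor of T and NK cells, had 7.33, 7.53 and 10.7 CPM in KO lungs, against 2.61, 6.04 and 4.59 CPM in WT lungs. The KO libraries lay above the WT libraries, but at a log2 difference of 0.94 ± 0.34 Tigit missed the threshold (edgeR adjusted p = 0.2). Rora, a transcription factor gene of tissue lymphocytes, had a log2 difference of −0.29 ± 0.12 (edgeR adjusted p = 0.287). None of 13 genes of FOXP3 partners and T cell transcription factors passed by edgeR or DESeq2 (2 higher and 0 lower at an unadjusted p under 0.05), with a median of −0.06. Ikzf1, which encodes Ikaros, and Cbfb, the partner of RUNX proteins, had log2 differences of 0.35 ± 0.14 and 0.28 ± 0.11 (edgeR adjusted p = 0.247 and 0.261).

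**Figure D5:**
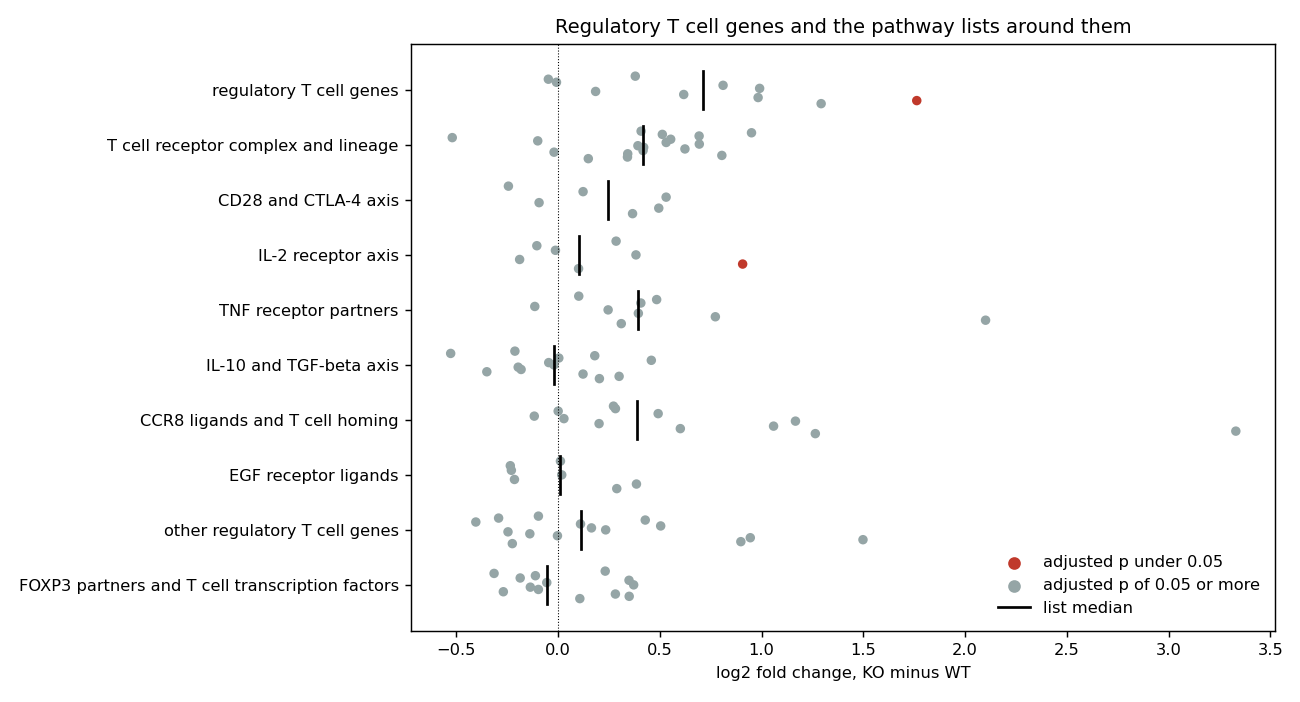
Log2 fold changes, KO minus WT, of the tested genes of the 10 regulatory T cell genes and of 9 lists around them; black bars are list medians and red points have an adjusted p under 0.05. Ctla4 and Il2rg are the red points, and the medians run from −0.06 to 0.71.

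By root mean square difference of centred log2(CPM + 0.5) over the 6 libraries, the genes most like Ctla4 among 12680 candidates were Oas3 (0.183), Klk1 (0.224), P2ry13 (0.234), Rsad2 (0.249) and Ifi44 (0.265). Oas3, Rsad2 and Ifi44 are known as interferon-induced genes. The 5 genes had log2 differences of 1.465 to 1.938, against 1.76 for Ctla4. The measure includes the KO to WT difference, so genes with a difference of like size rank high whatever their function. The genes most like Foxp3 were Hspbap1 (0.15), Igkc (0.202), Arl5c (0.21), Wfdc21 (0.212) and Cyp2f2 (0.215). No gene was on both lists of 5. Summed, 8 type I interferon response genes had 450.6, 620.4 and 823.6 CPM in KO and 238.3, 229.6 and 264.9 CPM in WT libraries. Of the 8 genes, 7 were called higher, against 1.12% of all genes. KO replicate 1 was the lowest KO library for this sum, for the T cell sum and for Ctla4. The part of the interferon response in the Ctla4 result was not tested. That of T cell RNA was examined only by the ratios to Cd28, Icos and the CD3 genes. Markers of other cell types that can express these genes were also counted. The 5 markers of type 1 effector T cells summed to 58.2 to 90.5 CPM in KO and 41.0 to 108.4 CPM in WT libraries, the 4 B cell markers to 110.7 to 181.2 CPM in KO and 74.7 to 119.8 CPM in WT libraries, and the 5 markers of mature dendritic cells to 230.2 to 288.9 CPM in KO and 202.1 to 258.9 CPM in WT libraries. In all 3 cases the sums overlapped between the groups, but single markers did not all do so. Of the 4 B cell markers 0 passed, and the median log2 difference was 0.61. At an unadjusted p under 0.05 by edgeR, 3 were higher, against 8.29% of all genes. Ms4a1, which encodes CD20, had every KO library above every WT library (log2 difference 0.97 ± 0.23, edgeR adjusted p = 0.0572). Of the 5 type 1 effector markers 0 passed and 1 was higher at an unadjusted p under 0.05, with a median of 0.06. That was Ifng, which encodes interferon gamma, with 12, 19 and 54 counts in KO libraries, against 0, 5 and 8 in WT libraries (log2 difference 2.65 ± 0.99, edgeR adjusted p = 0.22). Il12rb2 averaged 26.8 CPM in KO and 26.4 CPM in WT lungs, and Eomes 22.6 and 24.2 CPM. Together they made up most of the type 1 effector sum. The cells that made this RNA are not known, so that sum does not measure the T cell class. Of the 5 mature dendritic cell markers 0 passed and 0 had an unadjusted p under 0.05, with a median of 0.32. The part of these cells in the levels of the 10 genes was not tested.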

How the data were processed

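The deposited values were whole-number counts of reads per Ensembl gene. Per the labels' protocols, the authors used STAR 2.5 for alignment to mm10 (GRCm38), and HTSeq 0.6.1 then gave the counts. The sources used here name no annotation release, strand setting, counting mode or filter. Symbols, union exon lengths and coordinates came from GENCODE M21 by exact identifier (34490 of 35275 rows), and promoter windows from RefSeq (GRCm38.p6), with an entry for 7 of the 10 genes. The other rows kept their Ensembl identifier and stayed in the fit where they passed the filter.

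KO and WT lungs were compared with edgeR 4.0.16 in R 4.3.3 (TMM, filterByExpr with a minimum count of 10, glmQLFit with robust=TRUE, group alone). Adjustment was by Benjamini-Hochberg across the 15191 genes tested, at a threshold of 0.05, and all 10 genes passed the filter on low counts. The SE was taken as the absolute log2 fold change over the root of its F value. CPM use library totals times TMM factors. Ratios within a library were tested by exact permutation. DESeq2 1.42.0 and limma 3.58.1 (voom) were alternatives. Tested on simulated data of these 15191 genes, the fit found 67.7% of 2-fold and 80.3% of 3-fold changes, with 9.11% of its calls false. Libraries differed by at least 15.29 times the sampling variance (chi-square divided by its degrees of freedom), and each counted as 1 replicate. The labels do not say that each library came from a separate mouse, so the tests reflect only sample-to-sample spread, which may be technical. The genes, lists and tests were chosen with earlier results of these data known. Named genes were the 10 genes, in each list those called and the 2 with the smallest p, the neighbours of Ctla4, the receptors' ligands, Cd274, and the 5 genes most like Ctla4 and Foxp3. One gene that the rule names is not reported here. Genes named beyond this rule (Il2rb, Kit, Hs3st1, Il12rb2, Eomes, Adam17, Ms4a1, Ifng and the marker genes at 0) were chosen after their values were seen.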

Additional observations from a re-analysis of the deposited data

How the results depend on the processing

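The log2 fold change of Ctla4 stayed between 1.72 and 1.76 and passed under other scalings, no filter on low counts, DESeq2, limma-voom, robust=FALSE and the replicate block. Without 1 library in turn it ranged from 1.56 to 2.04 (adjusted p from 0.000584 to 0.109). The difference of Foxp3 (1.29) ranged from 1.14 to 1.46 without 1 library. Several other differences that did not pass moved by more relative to their size, or changed direction. Without KO replicate 3 the difference was 0.289 for Ikzf2 (0.62 with all libraries), 0.64 for Tnfrsf4 (0.99) and 0.457 for Il10 (0.81), and Areg (0.38) had 0.194 without KO replicate 2. The difference of Ccr8 (−0.01) was 0.12 by limma-voom and 0.078 with the replicate block, and without 1 library it ranged from −0.31 to 0.64. Without 1 library Tnfrsf18 ranged from −0.26 to 0.77 and Lrrc32 from −0.10 to 0.00 (0.001 without KO replicate 2). Il2ra (0.98, adjusted p = 0.141) passed with no filter on low counts (0.98, adjusted p = 0.017), and ranged from 0.70 to 1.23 without 1 library. Relative to the CD3 genes, the differences without 1 library ranged from 1.09 to 1.49 for Ctla4, −0.055 to 0.31 for Ikzf2, −0.61 to 0.48 for Tnfrsf18, −0.70 to 0.13 for Ccr8, 0.051 to 0.594 for Il10, 0.287 to 0.625 for Tnfrsf4 and −0.20 to 0.19 for Areg. By the same measure they ranged from 0.572 to 0.947 for Foxp3, 0.354 to 0.686 for Il2ra and −0.566 to −0.36 for Lrrc32. With T cell receptor constant genes or, chosen after seeing the data, Cd4 as the base, a pseudocount of 1 CPM or DESeq2 size factors, the difference was 1.145 to 1.261 for Ctla4 and no gene changed direction. Against Cd28 and Icos, Ctla4 ranged from 1.07 to 1.43 and from 1.03 to 1.26 without 1 library. The causes were not tested.

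Counts of calls moved more. Over all genes, 170 were higher and 51 lower, against 578 and 225 with no filter, 367 and 231 by DESeq2, and 309 and 96 with the replicate block. Leaving out 1 library gave 22 to 404 higher and 2 to 174 lower. Of the 10 genes, 1 was called, 2 with no filter, and 0 to 2 without 1 library. With no filter, by DESeq2 and with the replicate block, 5, 3 and 2 T cell receptor complex and lineage genes were called higher, and 2, 1 and 1 homing genes. With no filter 1 T cell lineage gene was called lower and 1 TNF receptor partner higher. Without 1 library, 0 to 2 T cell lineage, 0 to 1 CD28 axis, 0 to 1 IL-2 axis and 0 to 2 homing genes were called higher. Same-numbered samples were not treated as pairs: their deviations from the group means correlated at 0.05, 0.04 and 0.05, and no sample is labelled as paired.

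Depth limits the low genes most, since Foxp3, Il10, Ccr8, Tnfrsf18, Tnfsf4, Tnfsf18, Ccl1 and Ccl8 rest on 0 to 107 counts a library.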
